A study of Rattus norvegicus with 9 samples.

Results

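Genes of lipid droplets and of fatty acid handling were followed in rat liver after CLP, with or without a burn. The group of 8 genes comprised Plin2, Mgll, Fabp3, Fabp5, Lpin1, Cd36, Lpl and Lipc. It was taken by symbol from the platform annotation, which gave 12 probe sets of 15923 on the array, and all 12 passed the filter on low signals that left 13535 probe sets for testing. The array named 10412 genes in all. Another probe set, annotated to both Cd36 and a second gene, was left out. The 8 genes were assembled with the results of these same arrays in view. Their changes in all 3 comparisons are therefore given as a description, with no p-value for any of them, and "called" only places a probe set among those with an adjusted p under 0.05 in the fit of all 13535.

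Whole liver RNA had been hybridised to 9 one-colour arrays, 3 per group. Burn-CLP animals had a burn and CLP, Sham-CLP animals a sham procedure and CLP, and Sham-Sham animals, the controls, sham procedures only. CLP is not spelled out in the labels; in rats the letters usually mean cecal ligation and puncture, a model of abdominal sepsis. Strain, sex, age, burn size and the time of sampling are not given in the sources used here, and neither is whether each array stands for its own animal, so errors and p-values describe only the spread between these arrays, which may be technical. Hepatocyte genes were bright in every group: the summed signal of 7 hepatocyte markers, led by Alb (albumin) and Ttr (transthyretin), ran from 156939 to 168816 in Burn-CLP, from 160108 to 169889 in Sham-CLP and from 151180 to 161857 in Sham-Sham. The least typical array was Sham-Sham 1, whose correlation with the other 8 averaged 0.908, where every other array averaged 0.938 to 0.959. The 3'/5' signal ratio of Gapdh, a measure of RNA integrity, was 0.991 to 1.12 in Burn-CLP, 1.19 to 1.46 in Sham-CLP and 1.12 to 1.32 in Sham-Sham. That of beta-actin was 1.16 to 1.77 in Burn-CLP, 1.15 to 1.26 in Sham-CLP and 1.24 to 1.68 in Sham-Sham. The deposited 5S rRNA signal was 185.7 to 247.4 in Burn-CLP, 153.1 to 218.5 in Sham-CLP and 68.2 to 157.8 in Sham-Sham. It separated Burn-CLP from Sham-Sham without overlap, and the Gapdh ratio separated Burn-CLP from Sham-CLP without overlap. The part of these measures in the results was not tested.

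Hepatocytes store surplus fatty acids as triglyceride in lipid droplets, whose surface is coated by perilipins such as Plin2, the perilipin typical of liver. Stored triglyceride is released by a chain of lipases that ends with Mgll, which splits monoglyceride into glycerol and a fatty acid. Fatty acids enter through carriers such as Cd36, are held in the cytosol by fatty acid binding proteins (Fabp3 is the heart and muscle form, Fabp5 the epidermal form), and return to triglyceride through Lpin1, which makes diacylglycerol from phosphatidate and also acts with nuclear receptors on genes of fatty acid oxidation. Lpl and Lipc work outside the cell on the lipids of circulating lipoproteins.

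In Burn-CLP over Sham-Sham 1 probe set of the droplet coat gene Plin2 and 1 of the lipase gene Mgll were called lower. So were those of the lipase gene Lipc and the binding protein gene Fabp3, and that of Lpin1 was called higher. Probe sets of the same gene disagreed: Plin2 1382680_at and Mgll 1370831_at and 1375355_at overlapped Sham-Sham. Mgll 1388644_at was lower without overlap but was not called. Of the 12 probe sets 5 were called, 1 higher and 4 lower, where 0.746% of all tested probe sets were called, 0.325% higher and 0.421% lower. The median log2 change of the 12 was -0.49, beside 0.0089 over all tested probe sets. The 3 arrays of Burn-CLP did not overlap those of Sham-Sham in 7 of the 12, 2 higher and 5 lower, a separation found in 21.5% of all probe sets, 11% higher and 10.5% lower. Because these genes were picked with all 3 comparisons known, nothing is read from their counts in any of them. Liver RNA was measured in bulk, so fewer cells of a type and less RNA per cell cannot be told apart.

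**Figure D1:**
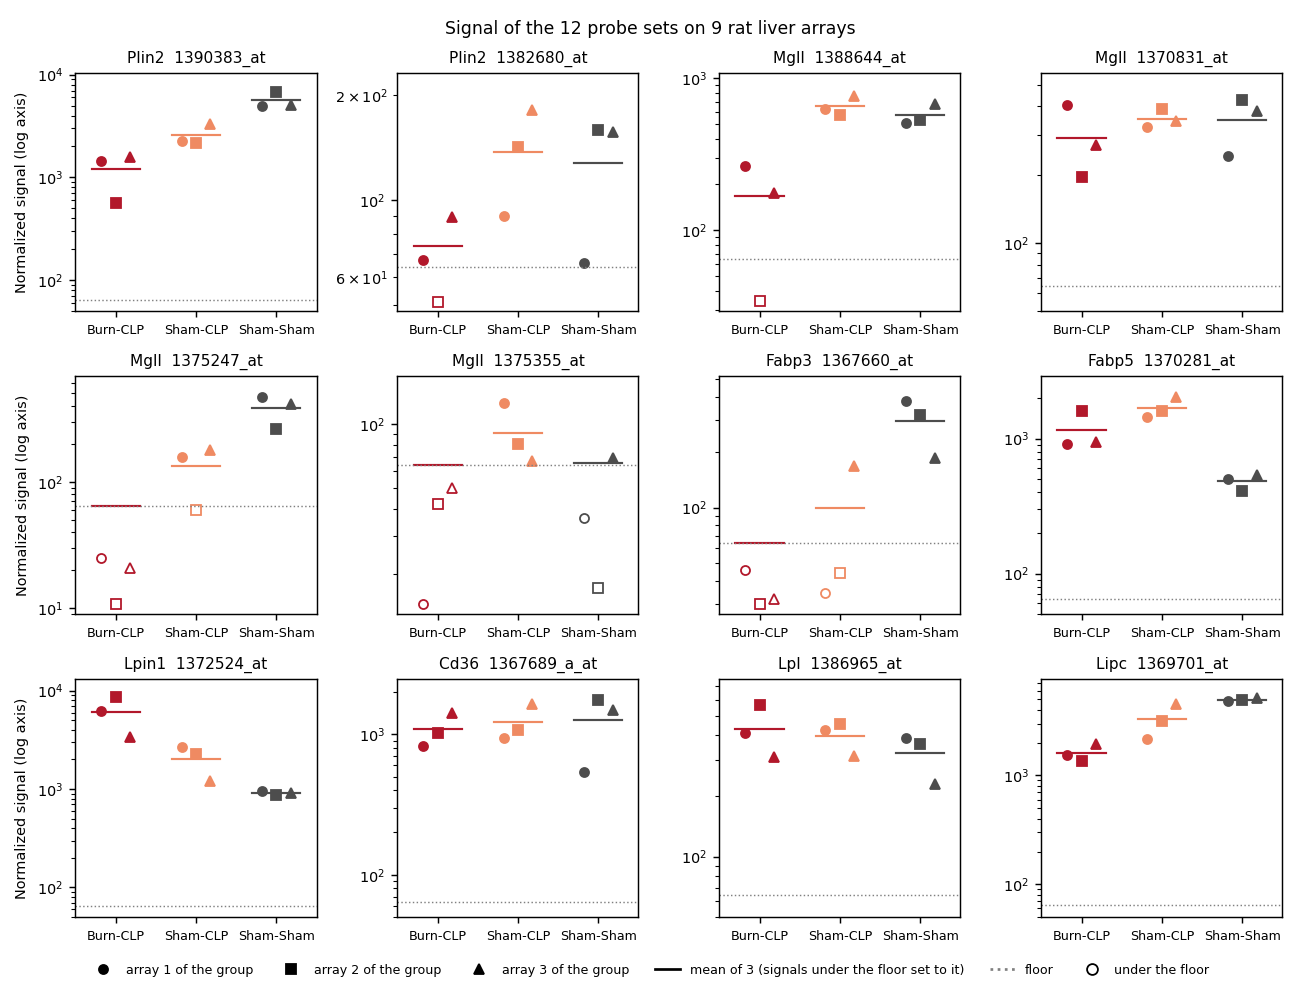
Normalized signal (log axis) of the 12 probe sets on each array, by group; symbols tell the 3 arrays of a group apart, bars are group means with signals under the floor of 64.3 set to it, and open symbols lie under the floor (dotted). Lpin1 is highest in Burn-CLP and Plin2 (1390383_at) and Lipc lowest, with Sham-CLP between, while Cd36 and Lpl overlap among all 3 groups.

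The start regions of the 5 genes with a called probe set, 4 lower and 1 higher, are shown as the sequence context of the calls. Each window holds 250 bases before and 50 bases after an annotated RefSeq transcript start in the rat assembly GRCr8. Windows were at hand for 6 of the 8 genes, all but Fabp5 and Lpl. The search covered 11 short motifs on both strands, chosen with the windows in view, and capitals mark their matches.
Plin2, chr5:106228969-106229268, minus strand: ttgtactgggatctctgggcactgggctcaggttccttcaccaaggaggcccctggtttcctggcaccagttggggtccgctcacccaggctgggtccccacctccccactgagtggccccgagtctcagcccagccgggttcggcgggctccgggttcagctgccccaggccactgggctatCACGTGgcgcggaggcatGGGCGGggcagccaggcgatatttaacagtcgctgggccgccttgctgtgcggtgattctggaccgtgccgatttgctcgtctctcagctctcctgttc
Mgll, chr4:122749186-122749485, plus strand: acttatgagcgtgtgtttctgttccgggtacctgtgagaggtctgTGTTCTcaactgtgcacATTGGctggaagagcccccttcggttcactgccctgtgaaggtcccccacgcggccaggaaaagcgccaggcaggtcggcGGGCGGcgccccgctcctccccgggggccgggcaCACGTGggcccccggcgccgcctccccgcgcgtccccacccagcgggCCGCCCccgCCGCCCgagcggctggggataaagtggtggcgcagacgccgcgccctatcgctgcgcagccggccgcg
Fabp3, chr5:147935875-147936174, plus strand: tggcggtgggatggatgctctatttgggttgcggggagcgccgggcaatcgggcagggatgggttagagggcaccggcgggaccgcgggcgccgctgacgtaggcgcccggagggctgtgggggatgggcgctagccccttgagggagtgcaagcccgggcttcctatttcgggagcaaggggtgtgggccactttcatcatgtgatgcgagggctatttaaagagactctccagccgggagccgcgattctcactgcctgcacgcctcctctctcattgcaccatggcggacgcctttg
Lpin1, chr6:45108893-45109192, minus strand: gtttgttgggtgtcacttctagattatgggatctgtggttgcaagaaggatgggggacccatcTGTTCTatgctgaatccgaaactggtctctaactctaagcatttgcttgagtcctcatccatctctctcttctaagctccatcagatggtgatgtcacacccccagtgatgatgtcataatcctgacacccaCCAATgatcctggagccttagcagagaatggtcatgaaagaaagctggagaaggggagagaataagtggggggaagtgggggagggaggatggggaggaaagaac
Lipc, chr8:80516236-80516535, minus strand: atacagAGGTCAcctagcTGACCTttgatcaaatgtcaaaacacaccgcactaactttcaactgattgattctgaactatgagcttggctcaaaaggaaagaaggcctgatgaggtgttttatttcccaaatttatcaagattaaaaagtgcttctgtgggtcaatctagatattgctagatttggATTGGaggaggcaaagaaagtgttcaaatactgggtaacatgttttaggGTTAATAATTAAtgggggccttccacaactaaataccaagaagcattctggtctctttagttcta

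The Plin2 and Mgll windows each held the E-box CACGTG, its first base at -67 in Plin2 and -74 in Mgll counted from the start, a sequence found in 6.42% of all 33469 windows. Both also held the GC box GGGCGG, present in 33.06% of windows. The Lipc window held a site for the liver factor HNF1 from position -15, searched as GTTAAT, any base and ATTAA, and 0.04% of windows held it. It also held the nuclear receptor core AGGTCA at 2 places (16.18% of windows). The Lpin1 window held the CCAAT box CCAAT, as did those of Mgll and Lipc and the second Plin2 window (37.49% of windows), and the steroid receptor core AGAACA, as did that of Mgll (20.68%). The motifs TATAAA (14.22% of windows), TGACGTCA (1.83%), TCACNCCAC (1.12%), a pair of AGGTCA with 1 base between (0.05%) and AGAACA with TGTTCT after 3 bases (0.01%), the last pair containing the cores above, had no match in the 5 windows printed, and the Fabp3 window matched none of the 11. A match is a description of letters and was not set against binding.

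Plin2 was lowest in Burn-CLP, with Sham-CLP in between, at 1 of its 2 probe sets. That probe set, 1390383_at, read 1458, 565 and 1589.9 in Burn-CLP, 2257, 2179 and 3311 in Sham-CLP, and 4965, 6812 and 5073 in Sham-Sham. No group overlapped another, and Burn-CLP 2 was the lowest array of all. Group means were 1204 ± 558 in Burn-CLP, 2582 ± 632 in Sham-CLP and 5617 ± 1036 in Sham-Sham (SD, n = 3 each). The change was -2.34 ± 0.37 on the log2 scale (± SE from the fit of all 9 arrays) in Burn-CLP over Sham-Sham, a called 5.08-fold fall, -1.13 ± 0.37 in Sham-CLP over Sham-Sham and -1.21 ± 0.37 in Burn-CLP over Sham-CLP, neither of these called.

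The other Plin2 probe set, 1382680_at, did not follow that gradient. It read 67.4, at the floor and 89.4 in Burn-CLP, 90.1, 143 and 181 in Sham-CLP, and 66.1, 159 and 157 in Sham-Sham. The floor is a signal of 64.3, below which values were set to it and have no order, so the readings in Burn-CLP and that of Sham-Sham 1 lay close to the limit of what was measured. Burn-CLP lay below Sham-CLP without overlap (-0.86 ± 0.37), while both CLP groups overlapped Sham-Sham (-0.70 ± 0.37 for Burn-CLP and 0.16 ± 0.37 for Sham-CLP).

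Mgll had 4 probe sets, which gave different pictures. Probe set 1375247_at was at the floor on all 3 Burn-CLP arrays, read 158, at the floor and 179 in Sham-CLP, and 473, 261 and 411 in Sham-Sham. This order, with Burn-CLP lowest and Sham-Sham highest, was the one seen for Plin2. The signal was at least 5.75-fold lower in Burn-CLP than in Sham-Sham (log2 change -2.52 ± 0.37, called). With arrays at the floor the size depends on where the floor lies: it was -3.75 with the floor at the 10th percentile, -1.73 at the 30th and -3.49 without one. In Sham-CLP it differed from Sham-Sham by -1.60 ± 0.37 with 1 of 3 arrays at the floor, without being called.

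Probe set 1388644_at of Mgll was low in Burn-CLP alone. It read 265, at the floor and 175 in Burn-CLP, 626, 571 and 766 in Sham-CLP, and 509, 532 and 672 in Sham-Sham. Sham-CLP and Sham-Sham overlapped (0.20 ± 0.43), while every Burn-CLP array lay below both. The log2 change was -1.98 ± 0.43 in Burn-CLP over Sham-Sham and -2.17 ± 0.43 in Burn-CLP over Sham-CLP, and neither was called. The 2 probe sets thus placed Sham-CLP differently. Their signals correlated at 0.62 over the 9 arrays, and at 0.15 after each group's mean was taken off.

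The remaining Mgll probe sets separated no group from Sham-Sham. Probe set 1370831_at read 404, 196 and 270.2 in Burn-CLP, 323, 389.7 and 346 in Sham-CLP, and 241, 425 and 382 in Sham-Sham, with changes of -0.29 ± 0.29 in Burn-CLP and 0.05 ± 0.29 in Sham-CLP over Sham-Sham. Probe set 1375355_at was at the floor on all 3 Burn-CLP arrays and on 2 of 3 Sham-Sham arrays, the third reading 69.2, and read 125, 80.7 and 67.0 in Sham-CLP. It can show little below these levels.

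Lipc, which encodes the hepatic lipase that hepatocytes secrete to act on lipoprotein remnants and HDL, fell 3.10-fold in Burn-CLP over Sham-Sham (log2 change -1.63 ± 0.27, called). Its probe set 1369701_at read 1547, 1363 and 1962 in Burn-CLP, 2153, 3185 and 4545 in Sham-CLP, and 4857, 4938 and 5126 in Sham-Sham. After quantile normalization the groups did not overlap in any pair. In the deposited intensities Sham-CLP 3 (4769) lay above Sham-Sham 1 (4377) and Sham-Sham 2 (4572), so that Sham-CLP overlapped Sham-Sham. The spread of the normalized signal was widest in Sham-CLP. Its highest array was 2.11 times its lowest, against 1.44 times in Burn-CLP and 1.06 times in Sham-Sham. The change was -0.66 ± 0.27 in Sham-CLP over Sham-Sham and -0.97 ± 0.27 in Burn-CLP over Sham-CLP, without a call. With a common median in place of quantile normalization the change in Sham-CLP over Sham-Sham was -0.29.

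Lpl, the lipase that frees fatty acids from circulating triglyceride and is made mainly outside the adult liver, overlapped among all 3 groups. It read 412, 568 and 311 in Burn-CLP, 426, 454 and 315 in Sham-CLP, and 390.0, 362 and 229.9 in Sham-Sham. The log2 changes were 0.39 ± 0.28 in Burn-CLP and 0.30 ± 0.28 in Sham-CLP over Sham-Sham, and 0.09 ± 0.28 between the CLP groups.

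Fabp3 was found above the floor chiefly in Sham-Sham. It was at the floor on all 3 Burn-CLP arrays and on 2 of 3 Sham-CLP arrays, the third reading 169, and read 381, 319 and 187 in Sham-Sham. Both CLP groups lay below Sham-Sham without overlap and overlapped each other. The signal was at least 4.40-fold lower in Burn-CLP than in Sham-Sham (log2 change -2.14 ± 0.39, called) and differed by -1.68 ± 0.39 in Sham-CLP, not called. The change in Burn-CLP was -3.01 with the floor at the 10th percentile and -1.34 at the 30th. Muscle is the best known source of Fabp3: of 8 muscle markers on the array Mb (myoglobin), Myh7 and Tnni3 were at the floor on all 9 arrays, and none (0) of the 8 tested muscle probe sets was called in any comparison (limma). At an unadjusted p under 0.05 there was 1 in Burn-CLP over Sham-Sham (Myh1, higher), 1 in Sham-CLP over Sham-Sham (Ckm, lower) and 0 between the CLP groups. Ckm, the muscle creatine kinase gene, read 275, 270.2 and 250.2 in Burn-CLP, 231, 249 and 227 in Sham-CLP, and 523, 338 and 274 in Sham-Sham. The order of its Sham-Sham arrays was that of Fabp3, Sham-CLP lay below Sham-Sham without overlap (-0.63 ± 0.23, adjusted p = 0.368), and Burn-CLP overlapped Sham-Sham through Sham-Sham 3 (-0.46 ± 0.23, adjusted p = 0.297). A Myh1 probe set, for a fast myosin heavy chain, differed the other way in Burn-CLP (0.95 ± 0.34, adjusted p = 0.178). The other Myh1 probe sets, all brighter, differed by 0.19 to 0.41 there. The part of muscle RNA in the Fabp3 values was not tested. The summed signal of the muscle markers, most of it from Myh1, was 4273 to 6920.4 in Burn-CLP, 4257 to 6348 in Sham-CLP and 4828 to 5337 in Sham-Sham.

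Fabp5 went the other way and was highest in Sham-CLP. It read 906, 1607 and 939.5 in Burn-CLP, 1439, 1586 and 2030.3 in Sham-CLP, and 502.5, 408 and 538 in Sham-Sham. Both CLP groups lay above Sham-Sham without overlap, and they overlapped each other through Burn-CLP 2. Means were 1151 ± 396 in Burn-CLP, 1685 ± 308 in Sham-CLP and 483 ± 67.2 in Sham-Sham (SD, n = 3 each). The log2 changes were 1.80 ± 0.25 in Sham-CLP (3.48-fold) and 1.21 ± 0.25 in Burn-CLP (2.32-fold) over Sham-Sham, and -0.59 ± 0.25 in Burn-CLP over Sham-CLP, none of them called.

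Lpin1 was the only one of the 12 probe sets called higher in Burn-CLP over Sham-Sham. It read 6147, 8536 and 3395 in Burn-CLP, 2667, 2253 and 1200.4 in Sham-CLP, and 949, 865 and 905 in Sham-Sham. No groups overlapped, and the arrays of the CLP groups were spread far more widely than those of Sham-Sham: the highest array was 2.51 times the lowest in Burn-CLP and 2.22 times in Sham-CLP, against 1.10 times in Sham-Sham. Lpin1 rose 6.21-fold in Burn-CLP over Sham-Sham (log2 change 2.63 ± 0.37, called), and differed by 1.09 ± 0.37 in Sham-CLP over Sham-Sham and by 1.54 ± 0.37 in Burn-CLP over Sham-CLP, neither called.

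Cd36, the fatty acid translocase, did not separate the groups. It read 827, 1028 and 1408 in Burn-CLP, 934, 1071 and 1647 in Sham-CLP, and 538, 1740.4 and 1489 in Sham-Sham. The Sham-Sham arrays spanned both CLP groups, with Sham-Sham 1 the lowest of all 9. Changes were -0.07 ± 0.43 in Burn-CLP and 0.08 ± 0.43 in Sham-CLP over Sham-Sham and -0.15 ± 0.43 in Burn-CLP over Sham-CLP, and the errors leave room for a change either way. Without Sham-Sham 1 the change in Burn-CLP over Sham-Sham was -0.61.

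**Figure D2:**
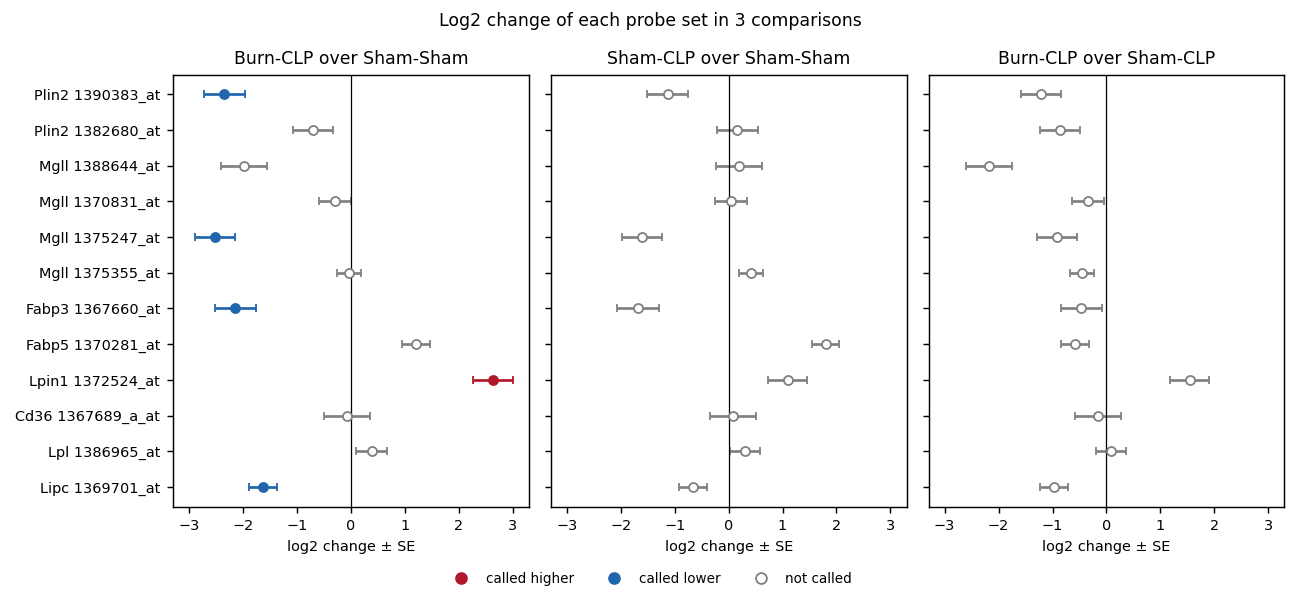
Log2 change (points) with its standard error (bars) for each of the 12 probe sets in the 3 comparisons; filled points were called. In Burn-CLP over Sham-Sham the Lpin1 probe set is called higher and 1 probe set each of Plin2, Mgll, Fabp3 and Lipc lower, and no point is filled in the other comparisons.

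Sham-CLP over Sham-Sham gave 0 called probe sets of the 12 (0.0591% of all probe sets were called, 0.0443% higher and 0.0148% lower), with 6 at an unadjusted p under 0.05 in limma, the only tool run, beside 11.7% of all probe sets. The groups did not overlap in 6 of the 12, Fabp5 and Lpin1 higher and Plin2 (1390383_at), Mgll (1375247_at), Fabp3 and Lipc lower, a separation seen in 16.7% of all probe sets, 8.1% higher and 8.65% lower. The median change of the 12 was 0.12, beside 0.0049 over all probe sets. For Burn-CLP over Sham-CLP, 0 of 12 were called (0.0148% of all probe sets, each of them higher), 7 had an unadjusted p under 0.05 (9.09% of all), and 6 did not overlap, Lpin1 higher and 5 probe sets of Plin2, Mgll and Lipc lower (18.8% of all, 9.61% higher and 9.22% lower). The median was -0.53, beside 0.019 over all. Both comparisons with Sham-Sham share its 3 arrays. For Plin2 (1390383_at), Lipc and Lpin1 the normalized Sham-CLP values lay between those of the other groups on all 3 arrays. In the deposited intensities this did not hold for Lipc on Sham-CLP 3.

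The 5 calls depended on the arrays in the fit, and so did the calls over all probe sets, 101 with all 9 arrays. Without Sham-Sham 1 or without Burn-CLP 1 none was left (0 of 12), beside 29 and 19 over all probe sets. Without Sham-Sham 2 or Burn-CLP 2 there was 1 call, beside 28 and 19 over all. Without Sham-CLP 2 there were 2 (37 over all), without Sham-CLP 1 there were 3 (42) and without Burn-CLP 3 there were 4 (221). Without Sham-CLP 3 there were again 5 (75), and without Sham-Sham 3 there were 6 (645). The size of the changes moved less. Without Sham-Sham 1, the array that stood apart, the changes were 2.68 for Lpin1, -2.44 for Plin2 (1390383_at), -2.36 for Mgll (1375247_at), -1.93 for Fabp3 and -1.66 for Lipc. Over these 9 fits the log2 change in Burn-CLP over Sham-Sham stayed between 2.34 and 3.00 for Lpin1, between -2.61 and -1.87 for Plin2 (1390383_at), between -2.78 and -2.36 for Mgll (1375247_at), between -2.44 and -1.93 for Fabp3 and between -1.77 and -1.51 for Lipc. Fabp5 was called in Sham-CLP over Sham-Sham without Sham-Sham 3 or Burn-CLP 2 (1.65 to 1.89 over the 9 fits). It was also called in Burn-CLP over Sham-Sham without Sham-Sham 3 (0.95 to 1.36). Fabp3 was called in Sham-CLP over Sham-Sham without Sham-Sham 3 (-2.13 to -1.44). Over all probe sets the calls in Sham-CLP over Sham-Sham were 8 with all 9 arrays, 347 without Sham-Sham 3 and 13 without Burn-CLP 2.

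Lpin1 and Lipc ran in opposite order over the arrays. Lipc was lower on arrays where Lpin1 was higher, with a Pearson correlation of -0.98 and a Spearman correlation of -0.98 over the 9 arrays, and -0.97 without the 2 arrays farthest from the Lpin1 median, Burn-CLP 1 and Burn-CLP 2. After each group's mean was taken off, the correlation of the deviations was -0.89. The opposite order was also present among the arrays of each CLP group. Sham-CLP 3 had the lowest Lpin1 and the highest Lipc of its group, and Burn-CLP 2 the highest Lpin1 and the lowest Lipc. In Sham-Sham, where both genes varied little, it was partial: Sham-Sham 3 lay above Sham-Sham 2 for both Lpin1 and Lipc. For Lpin1 and Plin2 (1390383_at) the correlations were -0.96 pooled and -0.79 for deviations, and for Lpin1 and Mgll (1388644_at) -0.81 and -0.52, the pooled value being -0.57 without Burn-CLP 1 and Burn-CLP 2. These are descriptions over 9 arrays in 3 groups, picked from 66 pairs of probe sets that share their arrays and normalization.

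**Figure D3:**
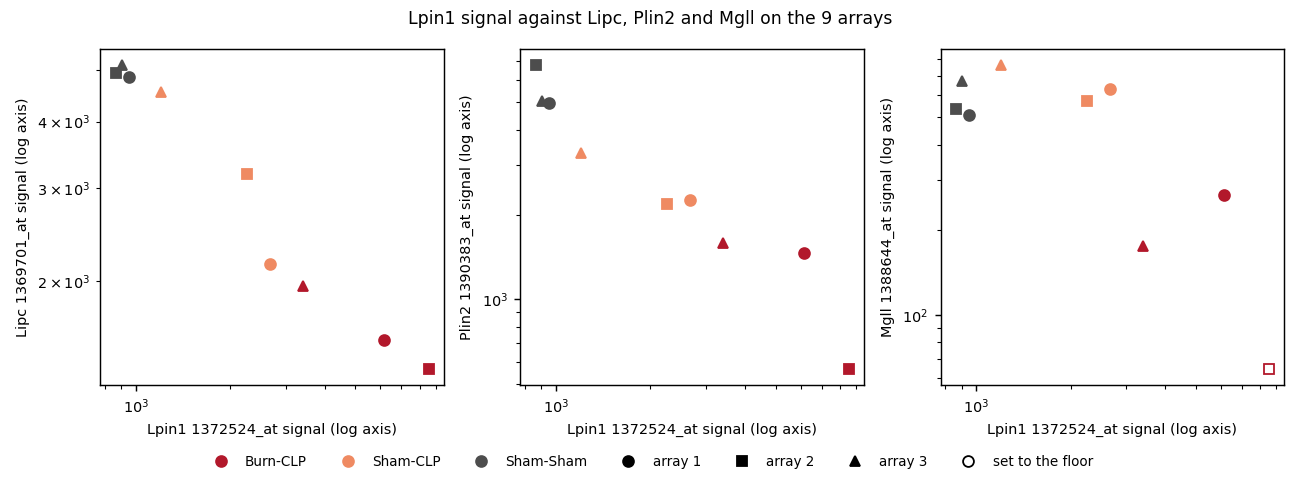
Normalized signal of Lpin1 (x, log axis) against Lipc, Plin2 and Mgll (y, log axes) on the 9 arrays, coloured by group with a symbol for each array; the open symbol was set to the floor. The arrays run from high Lipc and Plin2 in Sham-Sham to low Lipc and Plin2 in Burn-CLP, with Sham-CLP 3 nearest to Sham-Sham, whereas Mgll (1388644_at) is low in Burn-CLP only.

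The genes whose signal followed each member most closely over the 9 arrays were taken from 11117 to 11120 other named probe sets. For Plin2 they were Aldh2, Serpinf1 and Aldh3a2 (Pearson r 0.98, 0.97 and 0.97), of which Aldh2 and Aldh3a2 encode aldehyde dehydrogenases. For Lpin1 they were the trypsin inhibitor gene Spink1 (0.99), Pafah1b1 (0.98) and Fbxo31 (0.98), and for Lipc they were Cyp2b3 (0.98), the growth factor gene Igf1 (0.98) and Pecr (0.97), a peroxisomal enoyl-CoA reductase gene. For Mgll (1388644_at) they were Enpp2, Cald1 and Gamt (0.97 each), for Fabp3 Bbx (0.97), Hdac11 (0.96) and Nrep (0.96), and for Fabp5 Foxa3 (0.96), Spout1 (0.95) and Ypel5 (0.94). With deviations from group means the values for these pairs ran from 0.57 for Fabp5 with Ypel5 to 0.94 for Mgll with Enpp2.

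Genes that work beside these members were followed through 6 lists with 92 genes, of which 74 had a tested probe set (87 probe sets). None (0 of 87) was called in any of the 3 comparisons. At an unadjusted p under 0.05 in limma there were 31 of 87 in Burn-CLP over Sham-Sham, 9 of 87 in Sham-CLP over Sham-Sham and 21 of 87 in Burn-CLP over Sham-CLP. Over all tested probe sets the shares in these comparisons, in the same order, were 19.9%, 11.7% and 9.09%. Their median log2 changes in these comparisons, in the same order, were -0.10, 0.026 and -0.11, beside 0.0089, 0.0049 and 0.019 over all probe sets. Genes are named as the 4 probe sets of each list with the smallest p over the 3 groups.

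Among 14 lipid droplet genes, G0s2, whose protein inhibits adipose triglyceride lipase, had the largest difference. G0s2 was at the floor on 2 of 3 Burn-CLP arrays, the third reading 706, and read 2333, 1858 and 2017 in Sham-CLP, and 2578, 1527 and 1647 in Sham-Sham. Burn-CLP lay below both other groups (-3.71 ± 0.77 over Sham-Sham, adjusted p = 0.0607; -3.85 ± 0.77 over Sham-CLP, adjusted p = 0.208). Of other perilipin genes, Plin3 and Plin4 differed by -0.85 ± 0.24 (adjusted p = 0.113) and 1.09 ± 0.36 (adjusted p = 0.157) in Burn-CLP over Sham-Sham. Plin1, not among the probe sets with the smallest p, differed by -0.14 ± 0.23 there, with overlap. The sterol dehydrogenase gene Nsdhl differed by -1.03 ± 0.35 in Burn-CLP over Sham-Sham (adjusted p = 0.166). In Burn-CLP over Sham-CLP Nsdhl differed by -1.69 ± 0.35 (adjusted p = 0.23), without overlap, and Plin4 in Sham-CLP over Sham-Sham by 0.94 ± 0.36 (adjusted p = 0.383). The median of the 14 was -0.081.

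Pnpla2, which encodes that triglyceride lipase, the enzyme that opens the breakdown of stored triglyceride, read 3532, 4539 and 1399 in Burn-CLP, 1381, 1458 and 928 in Sham-CLP, and 645, 999 and 965 in Sham-Sham. It was above Sham-Sham on all 3 Burn-CLP arrays (1.72 ± 0.41, adjusted p = 0.0772) and overlapped Sham-CLP. Of the same 12 lipase probe sets, the phospholipase gene Pnpla8 differed by 1.05 ± 0.23 (adjusted p = 0.0693) and 0.76 ± 0.25 (adjusted p = 0.151) at its 2 probe sets, and Abhd6, another monoglyceride lipase gene, by -0.73 ± 0.18 (adjusted p = 0.0802), all in Burn-CLP over Sham-Sham.

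Among the regulators of Lpl, genes of 2 proteins that restrain the enzyme had low signals in Burn-CLP. Angptl4 read 772, 400.1 and 491 in Burn-CLP, 782, 709 and 1356 in Sham-CLP, and 1402, 1439.5 and 1193 in Sham-Sham (-1.33 ± 0.30 in Burn-CLP over Sham-Sham, adjusted p = 0.0715). Angptl8 was at the floor on 2 of 3 Burn-CLP arrays and read 193 on the third, against 330.3, 258 and 215 in Sham-CLP and 538, 272 and 317 in Sham-Sham (-1.95 ± 0.43 over Sham-Sham, adjusted p = 0.0693). The lipoprotein receptor gene Vldlr differed by -1.47 ± 0.32 (adjusted p = 0.0686), Burn-CLP having 1 array of 3 at the floor, and the sorting receptor gene Sort1 by 0.52 ± 0.19 (adjusted p = 0.18). A second probe set differed by 0.15 for Vldlr and by -0.21 for Sort1. Sort1 at its first probe set differed by 0.79 ± 0.19 in Sham-CLP over Sham-Sham (adjusted p = 0.254). The median over the 13 probe sets of this list was -0.13.

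In the list of fatty acid binding, uptake and activation the median of 20 probe sets was -0.28 in Burn-CLP over Sham-Sham. Dbi, the acyl-CoA binding protein gene, differed by -0.72 ± 0.23 (adjusted p = 0.155), the acyl-CoA synthetase genes Acsl3 and Acsl5 by -0.58 ± 0.25 (adjusted p = 0.236) and -0.06 ± 0.18 (adjusted p = 0.868), and the caveolin gene Cav1 by 0.61 ± 0.16 (adjusted p = 0.104), with -0.23 at a second Cav1 probe set that was mostly at the floor. Acsl5 was highest in Sham-CLP, without overlap with either other group: it differed by 0.54 ± 0.18 in Sham-CLP over Sham-Sham (adjusted p = 0.33) and by -0.60 ± 0.18 in Burn-CLP over Sham-CLP (adjusted p = 0.378). In Burn-CLP over Sham-CLP Acsl3 differed by -0.97 ± 0.25 (adjusted p = 0.345) and Dbi by -0.96 ± 0.23 (adjusted p = 0.333), both also without overlap. Among 10 probe sets of phosphatidate phosphatases, Plpp1 differed by 0.98 ± 0.23 (adjusted p = 0.0747), Plpp3 by 0.24 ± 0.21 (adjusted p = 0.556), Plpp4 by -0.49 ± 0.25 (adjusted p = 0.303) and Plpp6 by 0.38 ± 0.23 (adjusted p = 0.37), beside 2.63 ± 0.37 for Lpin1. The other Plpp3 probe sets differed by 0.41 and 0.58, with overlap. Of 18 probe sets of nuclear receptors and coactivators, Srebf1, the driver of fatty acid synthesis genes, differed by -0.63 ± 0.32 (adjusted p = 0.304), the fat cell receptor gene Pparg by -0.85 ± 0.33 (adjusted p = 0.21), Ncoa1 by -0.40 ± 0.17 (adjusted p = 0.23) and Nr1h2 by -0.38 ± 0.16 (adjusted p = 0.221). Srebf1 differed by -1.11 ± 0.32 in Burn-CLP over Sham-CLP (adjusted p = 0.366), without overlap. At a second Srebf1 probe set the difference was -0.72 in that comparison and -0.41 in Burn-CLP over Sham-Sham, with overlap in both.

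**Figure D4:**
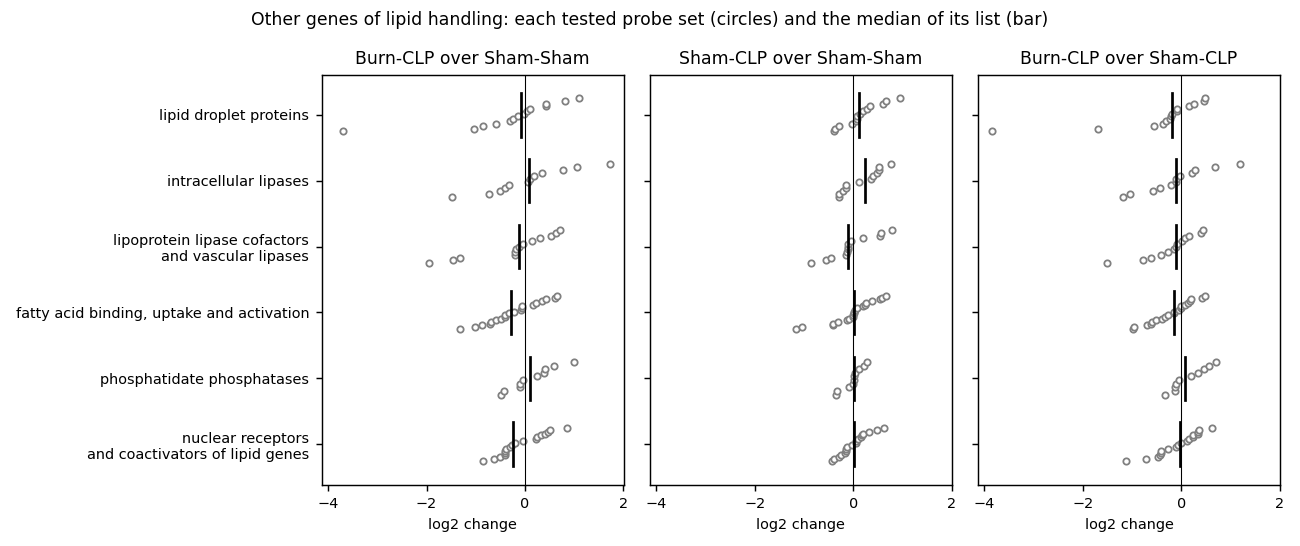
Log2 change of every tested probe set (circles, spread vertically for display) in 6 lists of lipid handling genes, with the list median as a bar, in the 3 comparisons. The medians lie between -0.28 and 0.24, and the circle farthest to the left in both comparisons of Burn-CLP is G0s2.

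The pathway counts also moved with single arrays, as did the calls over all probe sets. Without Burn-CLP 3 the latter were 221 in Burn-CLP over Sham-Sham (101 with all 9 arrays) and 36 in Burn-CLP over Sham-CLP (2). Leaving out Sham-Sham 3 gave 645 over all in Burn-CLP over Sham-Sham and 347 in Sham-CLP over Sham-Sham (8 with all 9 arrays). Without Burn-CLP 3, the array of that group nearest to the others for G0s2, Pnpla2 and Angptl8, 5 probe sets were called in Burn-CLP over Sham-Sham: G0s2 (-4.87, adjusted p = 0.000497), Angptl8 (-2.50, adjusted p = 0.0161), Pnpla2 (2.23, adjusted p = 0.018), Acsl1 (-1.02, adjusted p = 0.046) and Aadac (-0.96, adjusted p = 0.0471). In Burn-CLP over Sham-CLP 3 were, G0s2 (-5.02, adjusted p = 0.000391), Aadac (-1.48, adjusted p = 0.0317) and Nsdhl (-2.08, adjusted p = 0.0354). Without Sham-Sham 3, Vldlr was called in Burn-CLP (-1.87, adjusted p = 0.00856) and in Sham-CLP (-1.25, adjusted p = 0.0358), and Plpp1 in Burn-CLP (1.12, adjusted p = 0.0378), each over Sham-Sham. Acsl1 and Aadac were named after their values were seen.

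Markers of cells that also express these genes were set beside them. The 6 adipocyte markers on the array, with Cidea and Lipe the brightest, summed to 888 to 982 in Burn-CLP, 889.96 to 1106 in Sham-CLP and 762 to 1094 in Sham-Sham, ranges that overlap, with 0 of 5 tested called in any comparison. The 6 macrophage markers, led by Ctsb and Cd14, summed to 12058 to 15363 in Burn-CLP, 11136 to 13339.7 in Sham-CLP and 11539 to 12559 in Sham-Sham, with 0 called. The 6 endothelial markers, led by Kdr and Lyve1, summed to 2235 to 3210.4 in Burn-CLP, 2309 to 2848 in Sham-CLP and 2888 to 3402 in Sham-Sham, with 0 called; Sham-CLP lay below Sham-Sham without overlap. The 4 neutrophil markers, led by S100a9 and S100a8, summed to 510.2 to 1286 in Burn-CLP, 397 to 513 in Sham-CLP and 291 to 378 in Sham-Sham, and S100a9 rose 6.95-fold in Burn-CLP over Sham-Sham (2.80 ± 0.40, adjusted p = 0.0239), Sham-Sham having 2 arrays of 3 at the floor. At an unadjusted p under 0.05 the count in Burn-CLP over Sham-Sham, Sham-CLP over Sham-Sham and Burn-CLP over Sham-CLP was 1, 0 and 0 for adipocytes, 1, 0 and 1 for macrophages, 1, 2 and 1 for endothelium and 2, 1 and 1 of 3 tested for neutrophils. The part of these cells in the changes of the 8 genes was not tested.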

How the data were processed

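Rat whole liver total RNA gave 9 one-colour oligonucleotide arrays. The authors deposited a linear intensity for each probe set; nothing in the sources used here says how they made it, but the mean after trimming 2% at each end was the same on all 9 arrays (500.1 to 500.2), while medians lay between 89.9% and 117.5% of their mean. The arrays were therefore quantile normalized, everything under a floor at the 20th percentile (64.3) was raised to it, and values were put on the log2 scale. Probe sets with at least 3 arrays above the floor were tested, without 57 control probe sets. Groups were compared with limma 3.58.1 (lmFit, eBayes) in R 4.3.3 on 1 fit of all 9 arrays. An adjusted p (Benjamini-Hochberg over 13535 probe sets) under 0.05 was called. With 3 arrays against 3 an exact permutation test cannot give a two-sided p below 0.1, and none was run. In a simulation with known changes, 36% of those of log2 size 1 and 75% of size 2 were recovered in Burn-CLP over Sham-Sham. For Burn-CLP over Sham-CLP these shares were 34% and 77%. False calls numbered 6 of 117 in the former and 9 of 120 in the latter. A probe set left uncalled may therefore still have changed. Arrays have no read depth; their number limits the precision.

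Platform symbols were updated through the GRCr8 RefSeq annotation: 12789 probe sets had 1 symbol, 312 several and 2822 none. Cross-hybridization within gene families was not examined. Alternatives changed the scaling, floor, filter, spread model, the arrays in the fit and the use of replicate numbers. The member genes, gene lists, motifs and settings were chosen with earlier results of these data known. Named genes are all member probe sets, the 4 of each pathway list with the smallest F-test p, the 2 brightest of each marker list with any called marker, and the 3 genes most correlated with the brightest probe set of each member.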

Additional observations from a re-analysis of the deposited data

How the results depend on the processing

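Of the 12 member log2 changes, 11 kept their sign in every alternative that tested them in Burn-CLP over Sham-Sham (all but Cd36), and 9 in each other comparison. The 11 include Mgll (1375355_at), whose change reached -1.8e-15, which is no difference beyond rounding, so that its sign there has no meaning. Of 666 member values recomputed, 654 moved by less than the SD between arrays of a group and 12 by more, and 0 called values changed sign. Settings that changed only the filter, the spread model, the groups in the fit or the block return the same log2 change by construction. Leaving out an array of the group not compared moves it only through normalization and the floor. Such values are among the 666 and the kept signs, and say little about stability. The count of calls was less stable. Over all probe sets it also moved, from 19 to 645 in Burn-CLP over Sham-Sham when each array was left out. For Burn-CLP over Sham-Sham the 5 called member probe sets became 2 with the floor at the 10th percentile, 0 without the filter, 1 in a fit of only the 2 groups compared and 3 with the replicate number as a block, and 7 with the floor at the 30th percentile or with an intensity trend and robust eBayes, where Fabp5 and Mgll (1388644_at) were called as well; it ranged from 0 to 6 when each array was left out in turn. For Sham-CLP over Sham-Sham the count was 1 (Fabp5 higher) with a common median in place of quantile normalization, with the floor at the 30th percentile, with all 9 arrays required above the floor, and with an intensity trend and robust eBayes, and 0 to 2 when each array was left out. It was 0 in Burn-CLP over Sham-CLP in every setting run. The pathway count in Burn-CLP over Sham-Sham was 2 with the floor at the 30th percentile and 5 with an intensity trend and robust eBayes, and 0 to 5 when each array was left out; in Sham-CLP over Sham-Sham it was 0 to 1 and in Burn-CLP over Sham-CLP 0 to 3. The causes were not tested. The correlation of deviations from group means was -0.026 to 0.081 over the 9 pairs of arrays with equal replicate numbers. It was -0.072 to 0.037 over pairs with unequal numbers, and every value above 0.037 came from equal numbers. Whether equal numbers mark related arrays was not tested. The block gave 0 member calls in the other comparisons and 0 pathway calls. Signals near the floor of 64.3, as for Fabp3 and 3 of 4 Mgll probe sets, limit what can be seen downward.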

Other observations

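Cd36 and Lpl, which did not separate the groups, each followed other genes closely across the arrays. Cd36 correlated with Scarb1, the HDL receptor gene of the same protein family, at 0.96 (Spearman 0.90), and at 0.98 in deviations from the group means, and with Gna12 and Arf3 at 0.92 each (0.92 and 0.98 in deviations). Lpl correlated with G3bp2, Wapl and Usp1 at 0.97, 0.96 and 0.95, with 0.97 for each in deviations. Each is the top 3 of 11120 probe sets over 9 arrays that share their normalization, and no test was made of them.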
